A study of Mus musculus with 16 samples.

Results

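Embryonic stem cells (ESCs) carrying a stably integrated Prdm4-EGFP transgene were compared with wild-type ESCs on 12 of the 16 expression arrays of the series, 6 arrays for each group. The remaining 4 arrays held Prdm4 null ESCs. They entered the normalization, the common estimate of spread, the choice of the brightest probe for each gene and the check of the Prdm4 probes. Probes were kept when their detection p-value, the scanner software's measure of signal over background, was under 0.01 on at least 6 of the 12 arrays. This rule kept 14354 of 45281 probes. By the labels all cells were of strain 129/Sv. The cells compared had genotype Prdm4-EGFP in one group and Prdm4+/+ in the other. The study states that full-length Prdm4 joined to EGFP was driven by the chicken beta-actin promoter of pCAGGS, with an IRES puromycin resistance cassette. Its methods name feeder-free CCE or Prdm4 null ESCs as hosts, and the genotype label Prdm4-EGFP does not say which. Resistant clones were screened for EGFP. The Prdm4-EGFP cells had therefore passed through drug selection and a screen for fluorescence, and effects of these steps cannot be told apart from those of the transgene. The study's methods call the 6 arrays of each group biological replicates. The labels do not tie them to clones or cultures, so errors and p-values measure the spread between these arrays.

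Prdm4 belongs to the family of PR domain zinc finger proteins, many of which bind DNA through their zinc fingers and regulate transcription. ESCs come from the inner cell mass of the blastocyst and keep their pluripotent state through transcription factors such as Oct4 (Pou5f1), Nanog and Sox2, together with signals such as LIF, BMP and Nodal. A few cells of an ESC culture pass for a time through a state that resembles the embryo just after its first cleavage, marked by genes such as Zscan4.

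Levels are given as log2 normalized intensity, differences as Prdm4-EGFP minus wild-type on that scale with the SE of the fit (n = 6 arrays each). Rose, fell and called refer to an adjusted p-value under 0.05 (limma, Benjamini-Hochberg over all 14354 probes, two-sided), and the brightest tested probe stood for a gene. The 12 arrays had 13894 to 14784 probes detected and a median raw signal of 60.96 to 75.96. All 13 ESC markers were detected on all 12 arrays, with a summed linear level of 75545 to 78141 in Prdm4-EGFP cells and 75247 to 79523 in wild-type cells. Of 17 fibroblast or feeder cell markers 12 were detected on 0 of the 12 arrays, the collagens Col1a1, Col1a2 and Col3a1 among them. Another 3 were detected on all 12 arrays, namely Thy1 (mean 9.11 in Prdm4-EGFP and 9.12 in wild-type cells), Mmp2 (7.79 and 7.69) and Loxl1 (6.26 and 6.54), and none was called. The summed level of the 17 was 1156 to 1361 in Prdm4-EGFP cells and 1123 to 1360 in wild-type cells. Wild-type arrays 1, 5 and 6 stood apart. On the first principal component, with 30.4% of the variance over the 12 arrays, they lay at 28.7, 16.5 and 15.99, whereas Prdm4-EGFP arrays lay at -12.6 to -4.68 and wild-type arrays 2, 3 and 4 at 0.846, -4.17 and -5.54. Where the call of a named gene was lost without arrays 1, 5 and 6, the value without them is given.

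Prdm4 itself had 2 tested probes, and neither was higher on arrays labelled Prdm4-EGFP. The brighter probe read 10.07 to 10.34 (median 10.26) in Prdm4-EGFP cells and 10.17 to 10.40 (median 10.31) in wild-type cells, a difference of -0.05 ± 0.06 (95% confidence interval -0.18 to 0.07, adjusted p = 0.712). The dimmer probe read 7.02 to 7.41 (median 7.23) in Prdm4-EGFP cells and 7.06 to 7.49 (median 7.18) in wild-type cells, a difference of -0.01 ± 0.08 (95% confidence interval -0.17 to 0.16, adjusted p = 0.983). The groups overlapped at both probes, and the exact two-sided permutation test of 6 against 6 arrays gave p = 0.348 for the brighter and p = 0.950 for the dimmer probe, where the smallest p it can give is 0.00216. On the 4 null arrays the brighter probe remained detected, at 9.56 to 9.72, while the dimmer was detected on 0 of 4. The null allele lacks coding exons that the full-length transgene carries, and loss of the dimmer probe with the brighter one kept is what a target within those exons would give. The positions of the probes were not analysed here, and it is unclear if the brighter one reads transgene RNA. The array values gave no sign of raised Prdm4 RNA in the cells labelled Prdm4-EGFP. The study does report the Prdm4-EGFP protein in stably transfected ESC clones, by Western blot, fluorescence and binding to DNA. The labels do not tie these arrays to those clones.

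In all 529 probes were called (3.69% of those tested), 276 of them higher (1.92%) and 253 lower (1.76%) in Prdm4-EGFP cells, and 33 (0.230%) had an adjusted p under 0.001. At an unadjusted p under 0.05 there were 2597 probes (18.1%). Collapsed to 8243 genes, 343 were called (4.16%), of which 169 rose (2.05%) and 174 fell (2.11%). With median scaling in place of quantile normalization the split was 294 higher and 92 lower, with the median of all genes shifted to 0.05. Most changes were small. The median size of the difference was 0.40 among genes that rose and 0.43 among those that fell. Past 2-fold, 5 genes rose and 20 fell. The 6 Prdm4-EGFP arrays and the 6 wild-type arrays did not overlap for 77 of the genes that rose (0.934% of all genes) and 78 of those that fell (0.946%). Without wild-type arrays 1, 5 and 6 the fit called 148 genes, 90 of them among the 343, and without wild-type arrays 2, 3 and 4 it called 1006 genes, 293 of them among the 343.

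**Figure D1:**
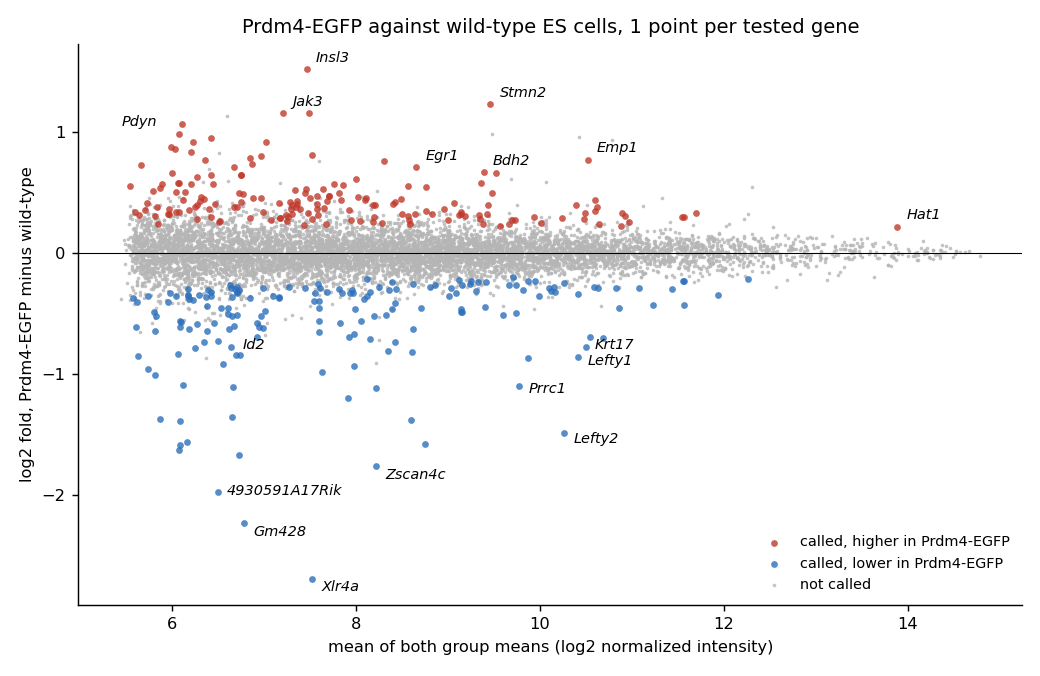
Each point is 1 of 8243 tested genes, with its mean level (log2 normalized intensity) on the x axis and the log2 difference, Prdm4-EGFP minus wild-type, on the y axis; colours mark genes called higher, called lower and not called. The genes that fell reach -2.70 (Xlr4a), and those that rose reach 1.52 (Insl3).

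The largest rise was that of Insl3, an insulin-like peptide hormone known from Leydig cells of the testis. Insl3 measured 8.06 to 8.36 (median 8.24) in Prdm4-EGFP cells and 6.21 to 6.97 (median 6.80) in wild-type cells, a difference of 1.52 ± 0.11 or 2.87-fold (adjusted p = 4.45e-07). Jak3, a Janus kinase of cytokine receptors that hold the common gamma chain, is the gene next to Insl3 in the RefSeq order. Jak3 measured 7.46 to 8.33 (median 7.73) in Prdm4-EGFP cells and 6.37 to 6.82 (median 6.69) in wild-type cells, a difference of 1.16 ± 0.14 or 2.24-fold (adjusted p = 9.90e-05). Every Prdm4-EGFP array lay above every wild-type array for both genes, with Jak3 highest on Prdm4-EGFP array 1. A second Jak3 probe rose by 1.02 ± 0.10 (adjusted p = 1.56e-05). In the mouse annotation Insl3 lies within the span of Jak3, so transcripts that run through both cannot be told apart from those of each gene. On the other side of Insl3, B3gnt3, a glycosyltransferase, differed by 0.38 ± 0.11 (adjusted p = 0.0666) and Fcho1, an endocytic adaptor, by 0.06 ± 0.06 (adjusted p = 0.647). Neither passed the test. Leaving out wild-type arrays 1, 5 and 6, Insl3 differed by 1.37 (adjusted p = 2.51e-06) and Jak3 by 1.01 (adjusted p = 0.00616).

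Further rises took in genes of several kinds. Pdyn, the precursor of the dynorphin opioid peptides, measured 6.25 to 6.76 (median 6.59) in Prdm4-EGFP cells and 5.09 to 5.93 (median 5.73) in wild-type cells, a difference of 0.99 ± 0.13 (adjusted p = 0.000390). It was detected on 6 Prdm4-EGFP arrays and on 4 of 6 wild-type arrays. Wnt3a, a canonical Wnt ligand, measured 6.23 to 6.74 (median 6.33) in Prdm4-EGFP cells and 5.24 to 5.97 (median 5.46) in wild-type cells, a difference of 0.88 ± 0.12 (adjusted p = 0.000467), and was detected on 2 of 6 wild-type arrays. For both genes the wild-type level lay close to background, which limits how well the size of the change is known. Wnt3a passed the detection filter mainly through the Prdm4-EGFP arrays, so its p-value is not taken as support. Emp1, a tetraspan membrane protein, was brighter, at 10.79 to 11.04 (median 10.90) in Prdm4-EGFP cells and 9.90 to 10.36 (median 10.13) in wild-type cells, a difference of 0.78 ± 0.11 (adjusted p = 0.000598). Bdh2, a cytosolic dehydrogenase, measured 9.56 to 9.82 (median 9.75) in Prdm4-EGFP cells and 8.92 to 9.27 (median 9.04) in wild-type cells, a difference of 0.67 ± 0.07 (adjusted p = 1.56e-05). No wild-type array reached the lowest Prdm4-EGFP array for any of these 4 genes. Pdyn, Emp1 and Bdh2 remained called without wild-type arrays 1, 5 and 6. Wnt3a then differed by 1.06, and its call there is likewise not taken as support.

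Of the other genes among the 20 largest rises with separate groups, Trf and Egr1 are described below with the bound genes. The rest were Sh3bgrl (1.07 ± 0.14), Sapcd1 (0.92 ± 0.12), Tmem45b (0.92 ± 0.12), Ly6g6d (0.77 ± 0.08), Mpp1 (0.76 ± 0.09), Slc9b2 (0.74 ± 0.11), Lrrc34 (0.66 ± 0.10), D3Ertd751e (0.65 ± 0.13), Gpr1 (0.63 ± 0.13), Ap3m2 (0.58 ± 0.12), BC028528 (0.57 ± 0.08) and B3galnt1 (0.57 ± 0.10). Mpp1 is a membrane-associated guanylate kinase known from red cells, Slc9b2 a sodium/proton exchanger, Ap3m2 a subunit of an adaptor complex of vesicle transport and B3galnt1 a glycosyltransferase. Second probes of Slc9b2 (0.54), Lrrc34 (0.47) and BC028528 (0.42) also rose, while those of Gpr1 (0.83, adjusted p = 0.0591) and D3Ertd751e (0.16, adjusted p = 0.412) were not called. Lost without wild-type arrays 1, 5 and 6 were the calls of D3Ertd751e (0.40, adjusted p = 0.0883), Gpr1 (0.33, adjusted p = 0.110) and Ap3m2 (0.32, adjusted p = 0.146).

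Stmn2, a microtubule regulator of neurons, and Lpar6, a receptor for lysophosphatidic acid, were named after their values were seen because their groups overlapped. Stmn2 measured 9.70 to 10.72 (median 9.96) in Prdm4-EGFP cells and 7.92 to 10.26 (median 8.73) in wild-type cells, a difference of 1.24 ± 0.34 (adjusted p = 0.0494). Its wild-type values fell into separate levels, at 8.02, 7.92 and 7.92 on arrays 1, 5 and 6 and at 9.53, 10.26 and 9.43 on arrays 2, 3 and 4. Without arrays 1, 5 and 6 the difference of Stmn2 was 0.34 (adjusted p = 0.490) and was no longer called. Lpar6 differed by 1.16 ± 0.20 (adjusted p = 0.00421), and by 0.69 without these arrays (adjusted p = 0.0481).

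**Figure D2:**
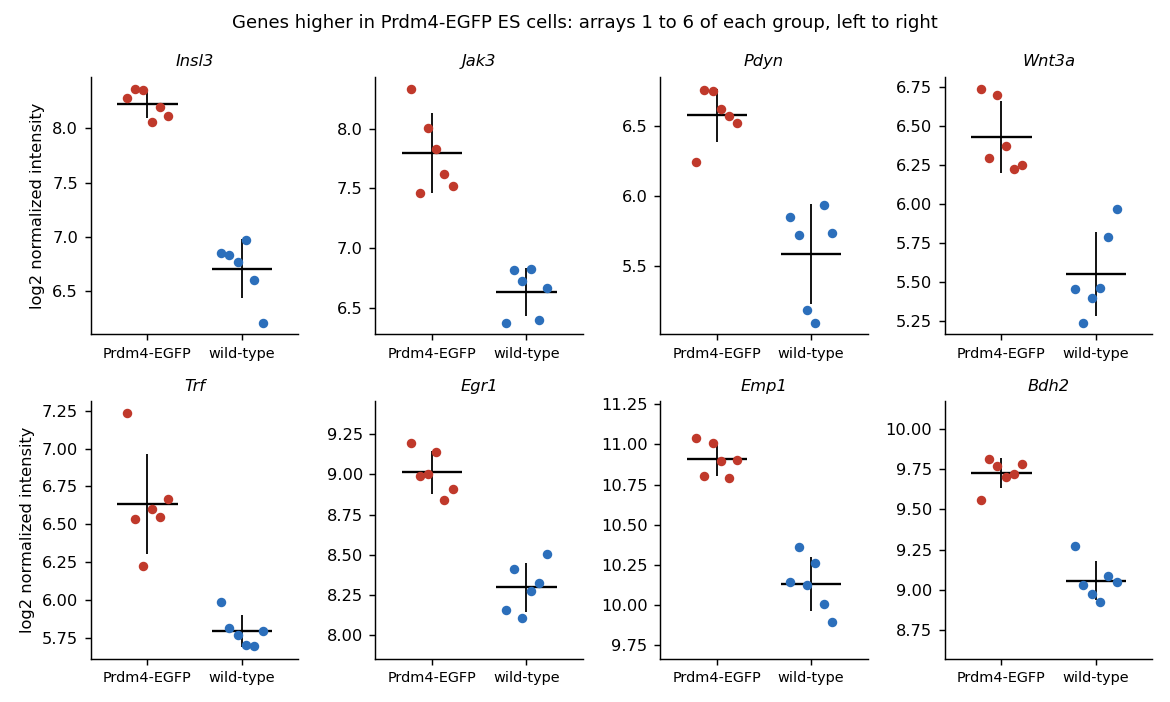
Log2 normalized intensity (y axis) of 8 genes that rose, with 1 point for each of 6 Prdm4-EGFP arrays (left) and 6 wild-type arrays (right), arrays 1 to 6 in order, and the group mean with 1 SD. In each panel every Prdm4-EGFP point lies above every wild-type point, as for Insl3 with 8.06 to 8.36 in Prdm4-EGFP cells and 6.21 to 6.97 in wild-type cells.

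Genes that the study lists with a Prdm4-EGFP binding region near their start site, by chromatin immunoprecipitation from Prdm4-EGFP ESCs, were examined as a list. Of 180 listed genes 162 were named on the array and 90 were tested. Called higher were 8 of 90 (8.89%), beside 2.05% of all tested genes, and called lower were 0 of 90, beside 2.11%. At an unadjusted p under 0.05 there were 29 of 90, beside 18.1% of all tested probes. The median difference of the 90 genes was 0.05 and 64 of them (71.1%) lay above 0, beside a median of 0.00 and 51.0% above 0 over all tested genes. Single members ran from -0.32 to 1.16. No test of the list was made. Without wild-type arrays 1, 5 and 6 together the count was 3 (3.33%, beside 1.02% of all genes), namely Egr1, Jak3 and Trf, and without wild-type arrays 2, 3 and 4 it was 15 (16.7%, beside 6.31%). With each of the 12 arrays left out in turn it was 4 to 10, with Egr1, Jak3, Top3b and Trf called each time.

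The promoter windows of 5 of the 8 called genes of this list are shown with that of Prdm4 (Trf, Egr1 and Wdfy3 are named only), and with those of Insl3 and Pdyn, which were added after their values were seen. The Prdm4 motif searched for, taken from the study's text, has a core, GAAAC, extended by CT and any base (CTNGAAAC) and then, across a spacer of 1 to 4 bases, by GGG. Each sequence holds the 250 bases before the annotated start, 5′ to 3′ on the gene's strand, from RefSeq, build GRCm38.p6. Capitals mark a match to the core or a longer form of the motif on either strand. Prdm4 and Pdyn have 2 windows each, of which the one with a match is shown.
Prdm4, chr10:85916987-85917236, minus strand: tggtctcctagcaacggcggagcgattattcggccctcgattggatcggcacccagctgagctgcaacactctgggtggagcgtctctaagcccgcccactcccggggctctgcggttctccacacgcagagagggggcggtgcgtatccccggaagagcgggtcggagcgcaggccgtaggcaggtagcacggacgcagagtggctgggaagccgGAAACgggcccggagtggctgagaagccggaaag
Jak3, chr8:71676133-71676382, plus strand: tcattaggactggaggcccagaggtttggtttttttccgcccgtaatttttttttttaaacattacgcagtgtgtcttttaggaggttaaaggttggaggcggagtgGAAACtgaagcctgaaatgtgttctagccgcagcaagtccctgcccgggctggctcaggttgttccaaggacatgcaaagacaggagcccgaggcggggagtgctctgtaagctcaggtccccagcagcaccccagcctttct
Insl3, chr8:71689002-71689251, plus strand: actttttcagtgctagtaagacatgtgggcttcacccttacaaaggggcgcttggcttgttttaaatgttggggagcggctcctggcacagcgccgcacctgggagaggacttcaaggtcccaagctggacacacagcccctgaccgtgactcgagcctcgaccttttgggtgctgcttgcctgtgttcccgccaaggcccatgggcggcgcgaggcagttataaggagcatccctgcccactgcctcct
Vpreb1, chr16:16869256-16869505, minus strand: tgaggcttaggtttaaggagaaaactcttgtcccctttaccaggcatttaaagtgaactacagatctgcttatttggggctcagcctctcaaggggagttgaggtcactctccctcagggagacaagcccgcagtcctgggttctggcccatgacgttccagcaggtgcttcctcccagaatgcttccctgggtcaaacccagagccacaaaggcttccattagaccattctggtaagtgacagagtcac
Top3b, chr16:16870486-16870735, plus strand: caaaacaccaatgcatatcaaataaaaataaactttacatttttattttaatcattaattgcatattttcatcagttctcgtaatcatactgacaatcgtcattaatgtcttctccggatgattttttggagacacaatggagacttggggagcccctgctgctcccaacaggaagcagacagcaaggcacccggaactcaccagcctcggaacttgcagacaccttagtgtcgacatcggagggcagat
Hat1, chr2:71389010-71389259, plus strand: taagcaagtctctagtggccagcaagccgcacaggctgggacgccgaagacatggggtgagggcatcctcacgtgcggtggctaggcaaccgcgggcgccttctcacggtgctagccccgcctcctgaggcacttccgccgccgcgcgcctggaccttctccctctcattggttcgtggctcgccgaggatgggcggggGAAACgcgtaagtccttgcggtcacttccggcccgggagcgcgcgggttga
Pnkd, chr1:74332360-74332609, plus strand: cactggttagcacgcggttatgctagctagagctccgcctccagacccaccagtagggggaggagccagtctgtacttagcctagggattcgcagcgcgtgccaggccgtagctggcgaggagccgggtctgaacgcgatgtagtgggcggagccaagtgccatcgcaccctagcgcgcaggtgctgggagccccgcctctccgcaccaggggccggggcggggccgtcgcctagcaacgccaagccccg
Pdyn, chr2:129698659-129698908, minus strand: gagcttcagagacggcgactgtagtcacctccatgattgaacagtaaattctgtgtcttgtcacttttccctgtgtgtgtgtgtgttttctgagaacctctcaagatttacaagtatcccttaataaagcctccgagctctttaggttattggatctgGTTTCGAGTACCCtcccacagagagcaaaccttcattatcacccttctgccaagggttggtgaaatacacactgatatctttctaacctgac

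The windows of Jak3, Hat1 and Prdm4 held the core, and that of Pdyn held the full motif, read on the opposite strand. The core occurred in 13044 of 32851 windows of this length (39.7%), CTNGAAAC in 1048 (3.19%) and the full motif in 79 (0.240%), both strands searched and each longer form counted within the shorter. Of 2774 tested genes with the core in a window 57 were called higher and 41 lower, beside 2.00% higher and 1.88% lower among the 6747 tested genes with a window. Of 26 tested genes with the full motif 1 was called higher, Pdyn, and 0 lower. Among tested bound genes with a window 35 of 71 held the core and 3 of 71 the full motif, beside 2774 and 26 of all 6747 tested genes with a window. A match describes the letters in the window and does not show binding there.

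The 8 called genes of the bound list were Jak3, Vpreb1 (0.86 ± 0.20), Trf (0.84 ± 0.12), Egr1 (0.72 ± 0.09), Top3b (0.55 ± 0.09), Wdfy3 (0.36 ± 0.09, adjusted p = 0.0380), Pnkd (0.35 ± 0.10, adjusted p = 0.0494) and Hat1 (0.22 ± 0.06). Trf encodes transferrin, the iron carrier of plasma, and measured 6.23 to 7.23 (median 6.57) in Prdm4-EGFP cells and 5.70 to 5.99 (median 5.78) in wild-type cells (adjusted p = 0.000535). Egr1, an immediate early transcription factor, measured 8.84 to 9.20 (median 8.996) in Prdm4-EGFP cells and 8.11 to 8.51 (median 8.30) in wild-type cells (adjusted p = 0.000298). Neither gene overlapped between groups, with Prdm4-EGFP array 1 highest for both. Hat1, a histone acetyltransferase acting on newly made histone H4, was bright, at 13.86 to 14.10 (median 13.998) in Prdm4-EGFP cells and 13.63 to 13.83 (median 13.81) in wild-type cells (adjusted p = 0.0347), with separate groups. Vpreb1, a chain of the surrogate light chain of B cell precursors, and Top3b, a topoisomerase, are neighbours. Vpreb1 measured 6.28 to 6.71 (median 6.41) in Prdm4-EGFP cells and 4.98 to 6.39 (median 5.57) in wild-type cells (adjusted p = 0.0204), and 3 of 6 wild-type arrays detected it, with array 4 (6.39) within the Prdm4-EGFP range. Top3b measured 8.74 to 9.08 (median 8.79) in Prdm4-EGFP cells and 8.02 to 8.51 (median 8.30) in wild-type cells (adjusted p = 0.00286), with separate groups, and its second probe rose by 0.56 ± 0.11 (adjusted p = 0.00894). The calls lost without wild-type arrays 1, 5 and 6 were those of Top3b (0.39), Vpreb1 (0.70), Wdfy3 (0.32), Pnkd (0.28) and Hat1 (0.23), with adjusted p from 0.0511 to 0.276.

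**Figure D3:**
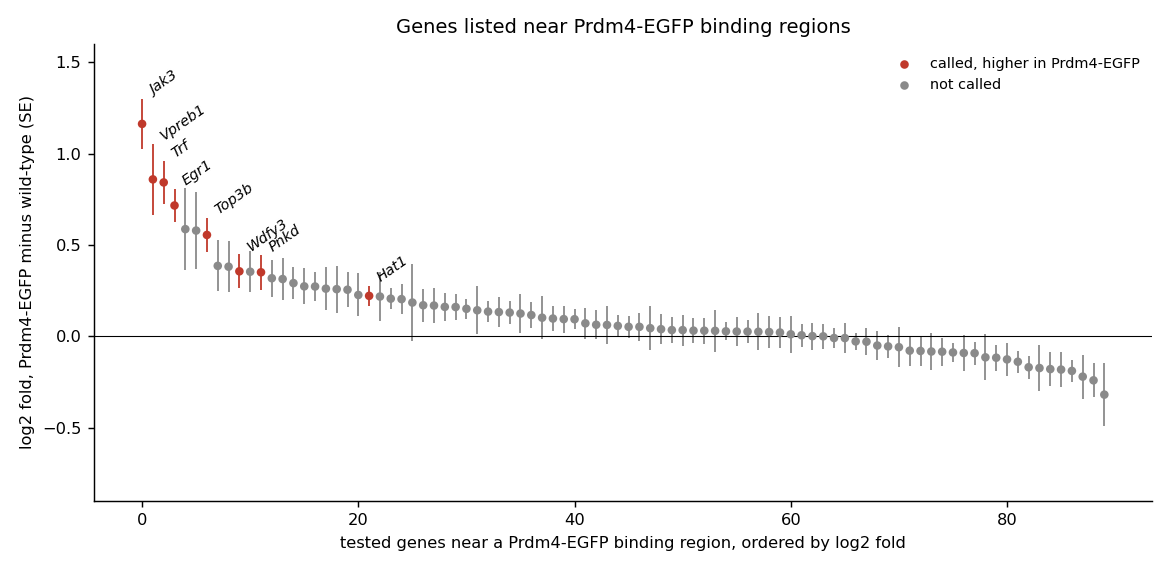
Log2 difference, Prdm4-EGFP minus wild-type, with its SE (y axis) for the 90 tested genes listed near a Prdm4-EGFP binding region, ordered by size (x axis). The 8 called genes lie between 0.22 and 1.16, and none of the 90 was called lower.

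In Nodal signaling, both Lefty genes fell. Lefty1 and Lefty2 encode secreted inhibitors of Nodal that are themselves induced by it. Lefty2 measured 9.02 to 10.58 (median 9.23) in Prdm4-EGFP cells and 10.60 to 11.46 (median 10.99) in wild-type cells, a difference of -1.49 ± 0.23 (adjusted p = 0.00168). Lefty1 measured 9.56 to 10.88 (median 9.79) in Prdm4-EGFP cells and 10.62 to 11.06 (median 10.86) in wild-type cells, a difference of -0.86 ± 0.17 (adjusted p = 0.00883). Prdm4-EGFP arrays 3 and 2 were highest of their group for both genes, at 10.58 and 10.02 for Lefty2 and 10.88 and 10.28 for Lefty1. Only a narrow gap separated the groups of Lefty2, and those of Lefty1 overlapped through array 3. Without Prdm4-EGFP arrays 2 and 3 the difference was -1.88 for Lefty2 and -1.16 for Lefty1. Without wild-type arrays 1, 5 and 6 it was -1.14 for Lefty2 (adjusted p = 0.0492) and -0.76 for Lefty1, which was then not called (adjusted p = 0.1003).

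Among 15 tested genes of Nodal and activin signaling these 2 fell and 0 rose (13.3% lower, beside 2.11% of all tested genes), and the list median was -0.06. The ligand Nodal differed by -0.12 ± 0.07 (adjusted p = 0.415) and Gdf1, a related ligand, by -0.46 ± 0.13 (adjusted p = 0.0676). Foxh1, a partner of Smad proteins, differed by -0.24 ± 0.12 at its brighter probe (adjusted p = 0.305) and by -0.46 ± 0.11 at its dimmer one (adjusted p = 0.0285).

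Id2, a helix-loop-helix inhibitor induced by BMP, measured 5.97 to 6.47 (median 6.31) in Prdm4-EGFP cells and 6.83 to 7.29 (median 7.04) in wild-type cells, a difference of -0.77 ± 0.09 (adjusted p = 6.19e-05). The groups were well separated and a second probe differed by -0.53 ± 0.10 (adjusted p = 0.00894). It was the 1 called gene among 11 tested in the BMP list (9.09% lower, beside 2.11% of all tested genes). In that list Id1 differed by -0.36 ± 0.10 (adjusted p = 0.05003, just past the threshold) and Id3 by -0.38 ± 0.18 (adjusted p = 0.291). In the LIF and Stat3 list, of 17 tested genes, Jak3 rose and Stat5a fell (5.88% each, beside 2.05% higher and 2.11% lower of all tested genes). Stat5a, a transcription factor downstream of Janus kinases, measured 4.77 to 5.75 (median 5.10) in Prdm4-EGFP cells and 5.86 to 6.24 (median 6.08) in wild-type cells, a difference of -0.85 ± 0.15 (adjusted p = 0.00387), and 1 of 6 Prdm4-EGFP arrays detected it. Stat5a thus passed the detection filter mainly through the wild-type arrays, and its p-value is not taken as support. Id2 remained called without wild-type arrays 1, 5 and 6 (-0.72) and Stat5a did not (-0.69, adjusted p = 0.0735). In the Wnt list Wnt3a and Ccnd1, which encodes cyclin D1 (0.30 ± 0.08, adjusted p = 0.0488), rose among 14 tested genes (14.3%, beside 2.05% of all), and in the FGF and Erk list Egr1 and Etv1, an ETS factor (0.43 ± 0.11, adjusted p = 0.0332), rose among 13 (15.4%). Ccnd1 and Etv1 were not called without wild-type arrays 1, 5 and 6 (0.23 and 0.36, adjusted p = 0.0944 and 0.0596). Further probes of Etv1 differed by 0.29 and 0.23 and were not called (adjusted p = 0.176 and 0.342).

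Of 6 tested genes of the 2-cell-like state 3 fell, and they varied widely between arrays. Zscan4c, a zinc finger gene of the early embryo, measured 6.15 to 8.93 (median 7.28) in Prdm4-EGFP cells and 7.99 to 9.97 (median 9.26) in wild-type cells, a difference of -1.76 ± 0.40 (adjusted p = 0.0200). Gm5662 (-1.67 ± 0.34, adjusted p = 0.0112) and Tcstv3 (-1.37 ± 0.33, adjusted p = 0.0256) also fell, so that 50% of the list was called lower, beside 2.11% of all tested genes, and 0 genes higher, with a list median of -0.83. Gm428 (-2.23 ± 0.33) and AF067061 (-1.56 ± 0.35), named after their values were seen, fell as well. Of these 5 genes only Zscan4c was detected on all 12 arrays. On Prdm4-EGFP arrays Zscan4c read 8.93 on array 6, 7.97 and 7.96 on arrays 4 and 1, and 6.60, 6.45 and 6.15 on arrays 3, 2 and 5. On wild-type arrays it was highest on array 1 (9.97) and lowest on array 4 (7.99), so that the groups overlapped. All 5 genes were highest on array 6 among Prdm4-EGFP arrays, and highest on array 1 and lowest on array 4 among wild-type arrays. When wild-type arrays 1, 5 and 6 were left out, Zscan4c differed by -1.31 (adjusted p = 0.212), Gm5662 by -1.11 (0.158), Tcstv3 by -0.73 (0.290) and AF067061 by -0.998 (0.156), and 0 genes of the list were called. The call of Gm428 was kept (-1.67, adjusted p = 0.0238). Without Prdm4-EGFP arrays 2 and 3 these same 4 calls were lost as well (Zscan4c -1.35, AF067061 -1.31, adjusted p = 0.0963 and 0.0865). Zscan4 and Tcstv genes have near-identical copies, so a probe may read more than 1 gene. Fewer cells in this state and less RNA per cell cannot be told apart in bulk samples.

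**Figure D4:**
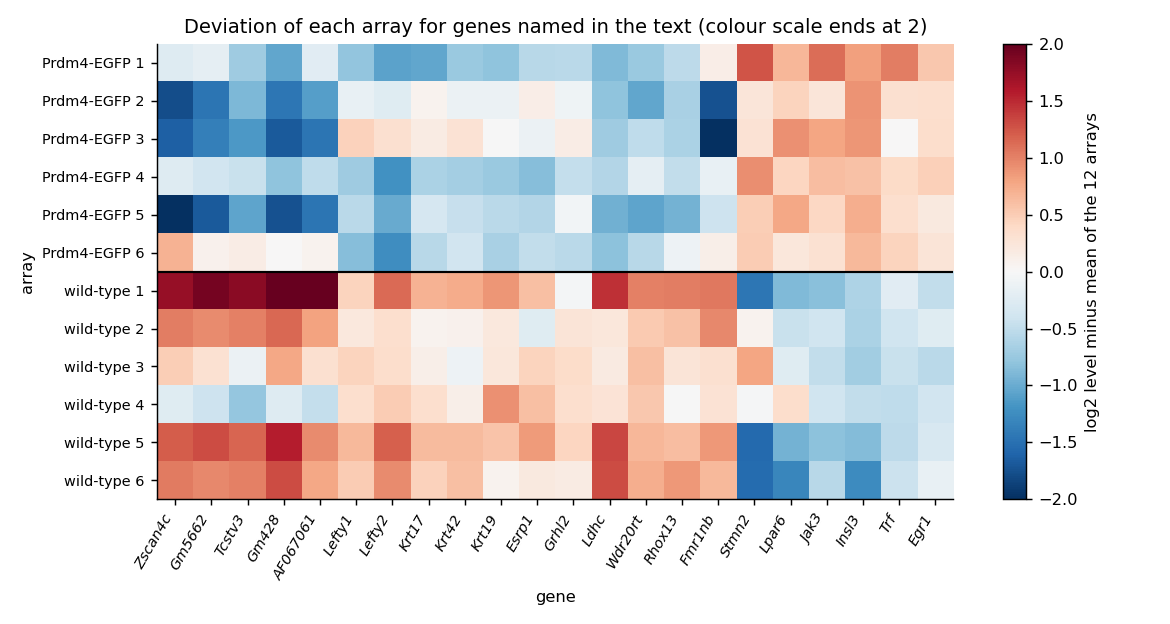
Log2 level minus the mean of the 12 arrays (colour, scale ending at 2) for 22 genes named in the text (x axis) on 6 Prdm4-EGFP arrays (upper rows) and 6 wild-type arrays (lower rows). Among Prdm4-EGFP arrays the 5 leftmost genes, those lower with Zscan4c, are lowest on arrays 2, 3 and 5, and the Lefty and keratin genes are highest on arrays 2 and 3; Stmn2 and Lpar6 are lowest on wild-type arrays 1, 5 and 6.

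Germ cell and testis genes made up many of the large falls. In this list 8 of 25 tested genes fell (32%, beside 2.11% of all tested genes) and 1 rose, Kit (0.32 ± 0.08, adjusted p = 0.0378), and the list median was -0.26. A second probe of Kit differed by 0.23 and was not called (adjusted p = 0.414). The list was drawn up with results of these arrays known, so its count only describes the named genes. Ldhc, the sperm form of lactate dehydrogenase, was not well above background on any of the 6 Prdm4-EGFP arrays, with 5.14 to 5.504 in Prdm4-EGFP cells and 6.26 to 7.54 in wild-type cells. Set against the lowest detected signal of each array, Ldhc was at least 2.39-fold lower in Prdm4-EGFP cells. Dmrtc1c1, an X-linked gene of the DMRT family, was likewise detected on 0 of 6 Prdm4-EGFP arrays, with 4.83 to 5.61 in Prdm4-EGFP cells and 6.38 to 7.43 in wild-type cells, and was at least 2.41-fold lower. These 2 of the 8 genes passed the detection filter through the wild-type arrays alone and so had to differ, and their p-values are not given. Wdr20rt, a retrogene, measured 5.61 to 6.47 (median 6.01) in Prdm4-EGFP cells and 7.19 to 7.66 (median 7.29) in wild-type cells, a difference of -1.36 ± 0.12 (adjusted p = 1.56e-05). No Prdm4-EGFP array reached the wild-type range for these 3 genes.

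Rhox13 (-1.12 ± 0.15), Fmr1nb (-1.38 ± 0.32), Tuba3a (-0.93 ± 0.18) and Smc1b (-0.83 ± 0.13), a cohesin subunit of meiosis, also fell with separate groups, and Taf7l (-1.01 ± 0.17), a relative of a TFIID subunit, fell with groups that met at 1 array each. Smc1b and Taf7l were not detected on all 12 arrays. Fmr1nb was uneven, at 6.52 and 6.86 on Prdm4-EGFP arrays 3 and 2 and at 8.18 to 8.74 on the other 4, against 8.90 to 9.65 in wild-type cells. All 3 further tested probes of Tuba3a, an alpha tubulin with close paralogs, fell as well. Among Rhox homeobox genes of the X chromosome 2 of 5 tested fell (40%, beside 2.11% of all tested genes), Rhox13 and Rhox5 (-0.70 ± 0.15, adjusted p = 0.0175), and Rhox9 (-0.45 ± 0.28), Rhox10 (-0.38 ± 0.27) and Rhox12 (0.03 ± 0.08) did not pass the test. Fmr1nb (-1.21, adjusted p = 0.178) and Tuba3a (-0.78, adjusted p = 0.108) were not called without wild-type arrays 1, 5 and 6. Wdr20rt, Rhox13, Smc1b and Taf7l were, and the calls of Ldhc and Dmrtc1c1 are not taken as support.

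X-linked Xlr4a, the largest fall of all genes, had a wide spread. It measured 5.62 to 7.10 (median 6.10) in Prdm4-EGFP cells and 6.002 to 11.61 (median 8.67) in wild-type cells, a difference of -2.70 ± 0.69 (adjusted p = 0.0345). Wild-type arrays 6, 1 and 5 read 11.61, 10.90 and 9.56, and arrays 2, 3 and 4 read 7.77, 7.38 and 6.002. Xlr4a differed by -0.87 without wild-type arrays 1, 5 and 6 and was not called (adjusted p = 0.220). The Xlr genes form a family of close copies, and Xlr4a was the 1 member tested.

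**Figure D5:**
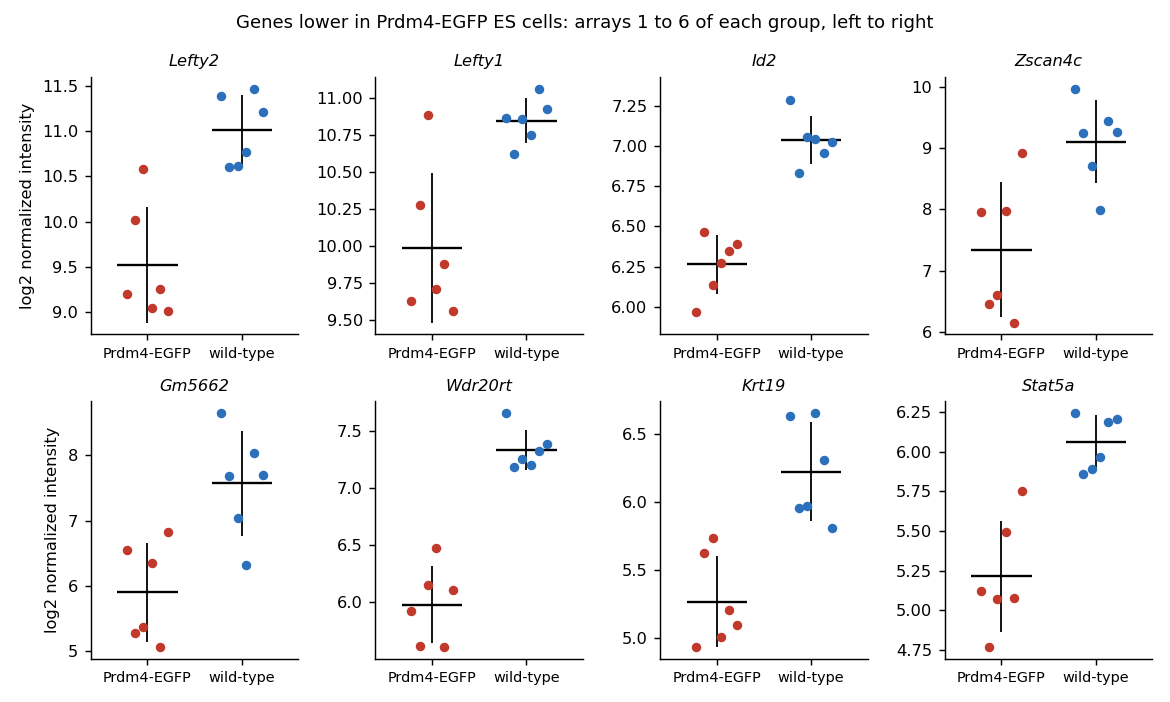
Log2 normalized intensity (y axis) of 8 genes that fell, with 1 point for each of 6 Prdm4-EGFP arrays (left) and 6 wild-type arrays (right), arrays 1 to 6 in order, and the group mean with 1 SD. Lefty2, Id2, Wdr20rt, Krt19 and Stat5a have separate groups, whereas Lefty1, Zscan4c and Gm5662 overlap.

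Keratins and epithelial genes included several that fell. In the list of trophoblast factors and simple keratins 3 of 8 tested genes fell (37.5%, beside 2.11% of all tested genes) and 0 rose, and all 3 were keratins, which are filament proteins of epithelia. Krt19 measured 4.93 to 5.74 (median 5.15) in Prdm4-EGFP cells and 5.81 to 6.65 (median 6.14) in wild-type cells, a difference of -0.96 ± 0.17 (adjusted p = 0.00490), and 2 of 6 Prdm4-EGFP arrays detected it. It passed the detection filter mainly through the wild-type arrays, so its p-value is not taken as support. Krt17 measured 9.47 to 10.67 (median 10.05) in Prdm4-EGFP cells and 10.57 to 11.19 (median 10.90) in wild-type cells, a difference of -0.77 ± 0.17 (adjusted p = 0.0163). Krt42 differed by -0.70 ± 0.17 (adjusted p = 0.0265), and its further probes by -0.70 and -0.81, both called. Prdm4-EGFP arrays 3 and 2 were highest of their group for all 3 keratins. Of 18 tested epithelial and mesenchymal genes, Esrp1, a splicing regulator of epithelia, fell (-0.82 ± 0.17, adjusted p = 0.0110), as did Grhl2, an epithelial transcription factor (-0.51 ± 0.12, adjusted p = 0.0200), and Emp1 rose, which is 11.1% lower and 5.56% higher, beside 2.11% and 2.05% of all tested genes. Without wild-type arrays 1, 5 and 6 Krt17 (-0.56), Krt42 (-0.39), Esrp1 (-0.68) and Grhl2 (-0.58) were not called (adjusted p = 0.200, 0.325, 0.102 and 0.0515). Krt19 then differed by -0.93, and its call there is likewise not taken as support.

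Further genes among the 20 largest falls with separate groups belonged to no list. The largest was 4930591A17Rik, which measured 5.22 to 5.94 (median 5.47) in Prdm4-EGFP cells and 6.84 to 8.22 (median 7.51) in wild-type cells, a difference of -1.97 ± 0.19 (adjusted p = 1.56e-05), with 2 of 6 Prdm4-EGFP arrays detecting it. This gene too passed the detection filter mainly through the wild-type arrays, so its p-value is not taken as support. Prrc1 was bright and well separated, at 8.96 to 9.45 (median 9.24) in Prdm4-EGFP cells and 9.80 to 10.73 (median 10.35) in wild-type cells, a difference of -1.10 ± 0.11 (adjusted p = 2.99e-05). Mlana (-1.08 ± 0.11), a melanosome protein, Dok2 (-0.98 ± 0.15), an adaptor of tyrosine kinases, Rec114 (-0.92 ± 0.18), a factor of meiotic recombination, Smoc1 (-0.73 ± 0.13), a secreted calcium-binding protein, Slamf9 (-0.72 ± 0.14) and 4933402E13Rik (-0.69 ± 0.11) also fell with separate groups. Mlana was not detected on all 12 arrays. Of the genes named here Rec114 alone was not called without wild-type arrays 1, 5 and 6 (-0.70, adjusted p = 0.0860).

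Of 26 tested genes of the pluripotency network 1 fell, Tcl1, a coactivator of Akt (-0.28 ± 0.07, adjusted p = 0.0374), and 0 rose (3.85% called, a share near the 4.16% of all tested genes). At an unadjusted p under 0.05 there were 6 of 26, beside 18.1% of all tested probes. Tcl1 was not called without wild-type arrays 1, 5 and 6 (-0.22, adjusted p = 0.210), nor at its second probe (-0.28, adjusted p = 0.0514). Pou5f1 measured 12.70 to 13.07 (median 12.84) in Prdm4-EGFP cells and 12.72 to 13.001 (median 12.93) in wild-type cells, a difference of -0.03 ± 0.08 (95% confidence interval -0.19 to 0.14). Nanog differed by -0.11 ± 0.08 (-0.27 to 0.06) and Sox2 by 0.05 ± 0.09 (-0.14 to 0.24). None of the 16 tested genes that the study names or measured by PCR was called at its brightest probe (limma). Differences ran from -0.24 (Foxh1, whose dimmer probe was called lower) to 0.31 (Tbx3, a T-box factor). An unadjusted p under 0.05 was found for 2 of 16, beside 18.1% of all tested probes. By quantitative PCR the study instead reports pluripotency markers as raised in Prdm4-EGFP cells. Dppa4, a chromatin-bound marker of pluripotent cells, differed by 0.15 ± 0.05 at its brightest probe and was not called (adjusted p = 0.133), while its dimmer probes differed by 0.22 ± 0.06 (adjusted p = 0.0323) and 0.23 ± 0.06 (adjusted p = 0.0411). Among 7 tested genes of the primed epiblast Car14, a carbonic anhydrase (0.56 ± 0.12), and Sox4, an HMG box factor (0.48 ± 0.08), rose (28.6%, beside 2.05% of all tested genes).

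In most other lists at most 1 gene was called. Lrp2, an endocytic receptor of endoderm (0.53 ± 0.13), Irf9, a factor of the interferon response (0.31 ± 0.08), and Mbd4, a DNA glycosylase that binds methylated sites (0.25 ± 0.06), rose. They were the called members among 11 endoderm, 16 interferon and 13 DNA methylation genes (9.09%, 6.25% and 7.69% higher, beside 2.05% of all tested genes). Xbp1, a factor of the unfolded protein response (-0.43 ± 0.09), Aen, a nuclease induced by p53 (-0.35 ± 0.07), Gstp1, a glutathione transferase (-0.29 ± 0.06), and Evx1, a homeobox factor of the primitive streak (-0.35 ± 0.09), fell. They were the called members among 26 stress, 23 p53, 21 antioxidant and 3 mesoderm genes (3.85%, 4.35%, 4.76% and 33.3% lower, beside 2.11% of all tested genes). Of these 7 genes Aen alone remained called without wild-type arrays 1, 5 and 6 (adjusted p = 0.0205). The others then differed by 0.26 (Lrp2), 0.22 (Irf9), 0.16 (Mbd4), -0.33 (Xbp1), -0.28 (Gstp1) and -0.34 (Evx1), with adjusted p from 0.0644 to 0.317. On the full set of arrays, second probes of Aen (-0.06, adjusted p = 0.842), Irf9 (0.15, adjusted p = 0.542) and Gstp1 (-0.24, adjusted p = 0.0617) were not called. Trf was the called member of 13 iron genes (7.69% higher) and Ccnd1 that of 25 cell cycle genes (4% higher). Insl3 and Pdyn were called among 6 neural and endocrine genes (33.3% higher, beside 2.05% of all tested genes), a list drawn up with results known. No member was called (limma) of 11 heat shock, 17 cholesterol synthesis, 19 glycolysis, 20 imprinted, 19 Polycomb, 5 Prdm family and 14 Prdm partner genes, of which 4, 5, 1, 7, 3, 1 and 0 had an unadjusted p under 0.05. Among all tested probes 18.1% had such a p.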

How the data were processed

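Total RNA of 16 ESC samples was hybridised to Illumina BeadChips for the mouse genome. The deposited table holds, per the file headers, a non-normalized bead intensity and a detection p-value for each probe and array, as the authors exported them. The 12 arrays were matched by column name to the labels, and 0 columns belonged to other samples. Intensities were background-corrected with the detection p-values, given an offset of 16, quantile normalized and taken to log2 (neqc). A model with 3 group means over 16 arrays was fitted with lmFit and eBayes (limma 3.58.1, R 4.3.3), and p-values were adjusted by Benjamini-Hochberg over 14354 tested probes. The deposited normalized table, log2 transformed with the same offset, was used only as an alternative. Names came from the platform annotation, which gave 1 symbol to 34885 probes, several to 18 and none to 10378 of 45281, and 8234 of 8243 tested genes matched RefSeq. Named genes were the 20 largest rises and falls with groups that did not overlap, called members and up to 4 members of smallest p of each list discussed, genes the study names, and neighbours of the largest changes. The members and lists were chosen with earlier results of these data known. The scripts were tested on simulated data. Figures used Python 3.11.15, numpy 2.4.6, pandas 2.3.3 and matplotlib 3.10.9. The number of arrays limits the precision. One gene that the naming rule selects is not reported here.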

Additional observations from a re-analysis of the deposited data

Results flagged for a closer look

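Among 131 named genes, each group of 6 arrays was searched for 1 array far from the other 5, by Dixon's ratio of gap to range at its 95% critical value. Of 262 groups tested 12 held such an array. Chance gives about 1 in 20 groups. All values are log2 normalized intensities.

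In 8 groups the array apart was the highest. Ly6g6d read 7.06 on Prdm4-EGFP array 1, with the other 5 at 6.56 to 6.74. BC028528 read 8.36 on Prdm4-EGFP array 5, with the other 5 at 7.95 to 8.09. B3galnt1 read 8.56 on Prdm4-EGFP array 3, with the other 5 at 7.99 to 8.16. Irf9 read 7.62 on Prdm4-EGFP array 3, with the other 5 at 7.29 to 7.40. Irf9 read 7.41 on wild-type array 4, with the other 5 at 6.92 to 7.09. Dppa4 read 12.92 on Prdm4-EGFP array 3, with the other 5 at 12.67 to 12.76. Klf4 read 9.13 on Prdm4-EGFP array 2, with the other 5 at 8.74 to 8.86. Tcl1 read 10.52 on wild-type array 1, with the other 5 at 10.20 to 10.29.

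In 4 groups it was the lowest. Ccnd1 read 10.97 on wild-type array 1, with the other 5 at 11.44 to 11.53. Prdm4 read 10.07 on Prdm4-EGFP array 3, with the other 5 at 10.24 to 10.34. Prdm2 read 10.05 on Prdm4-EGFP array 3, with the other 5 at 10.13 to 10.16. Gstp1 read 11.05 on Prdm4-EGFP array 1, with the other 5 at 11.29 to 11.37.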

How the results depend on the processing

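The calls depended on the set of arrays and on the processing. Counts are given for probes called (529), genes higher (169) and lower (174), and for list members called, namely bound genes (8), 2-cell-like (3), germ cell (8), Nodal (2) and trophoblast (3) genes. The list counts were added as results after seeing the data. With 1 array left out at a time, probes called ranged from 294 to 712, genes higher from 92 to 224, genes lower from 100 to 243, bound genes from 4 to 10, 2-cell-like from 2 to 3, germ cell from 7 to 10, Nodal from 2 to 3 and trophoblast from 2 to 4, and the Prdm4 difference from -0.08 to -0.02 at the brighter and from -0.04 to 0.05 at the dimmer probe. Probes called fell below the full count by more than 1.5 times when wild-type array 5 (294 probes), wild-type array 6 (321), Prdm4-EGFP array 5 (314) or Prdm4-EGFP array 6 (343) was left out.

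Without wild-type arrays 1, 5 and 6 there were 212 probes, 84 genes higher, 64 lower, 3 bound, 0 2-cell-like, 1 Nodal and 1 trophoblast gene. Without wild-type arrays 2, 3 and 4 there were 1609 probes, 520 higher, 486 lower, 15 bound, 13 germ cell and 5 trophoblast genes. Without Prdm4-EGFP arrays 2 and 3 there were 108 higher, 5 bound and 0 2-cell-like genes. Arrays numbered 1 and 2 alone gave 3 probes, 1 gene higher, 2 lower, 1 germ cell gene and 0 of the bound, 2-cell-like, Nodal and trophoblast lists, and arrays numbered 3 and above gave 77 probes, 27 higher, 25 lower, 4 bound, 3 germ cell genes and 0 of the 2-cell-like, Nodal and trophoblast lists. The smaller number of arrays is part of each of these settings. Normalizing and fitting the 12 arrays alone gave 287 probes, 93 higher, 96 lower and 1 2-cell-like gene, and dropping the detection filter, which tests more probes, gave 317 probes, 91 higher, 5 bound, 1 2-cell-like and 1 trophoblast gene. Median scaling gave 294 higher and 92 lower. Requiring detection on all 12 arrays left 4 germ cell genes and 1 2-cell-like gene, array weights 1 2-cell-like gene and eBayes with trend and robust settings 1 2-cell-like gene. At an adjusted p under 0.001 there were 33 probes. The cause of these shifts was not tested.

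With the replicate number as a block 542 probes were called, 173 genes higher and 175 lower, with 7 bound genes, and 277 of the 343 called genes were shared. No list count moved by more than 1.5 times. Same-numbered arrays correlated at 0.0191 to 0.262 in their deviations from the group means (mean 0.0944, and -0.0178 for other pairs), 2 of 6 pairs were above 0.1, and 1 of 12 arrays matched its own number best, so the numbers were not taken to pair the samples. Single probes did follow the number, such as 1 of Actb at 11.48, 11.58, 11.15, 11.01, 10.95 and 11.44 on Prdm4-EGFP arrays 1 to 6 and 11.59, 11.64, 11.08, 10.94, 10.90 and 11.38 on wild-type arrays 1 to 6. Of 81 called named genes 61 kept their call with each of the 12 arrays left out, 42 without wild-type arrays 1, 5 and 6, and 2 (Insl3 and 4930591A17Rik) under every setting in which they were tested. There were 28 such settings for Insl3 and 27 for 4930591A17Rik, which drops out when detection on all 12 arrays is required. The latter passed the detection filter mainly through the wild-type arrays, so its repeated call is not taken as support. Of the 81 genes 57 were detected on all 12 arrays. Of 22 called named genes with a second brightest tested probe, 12 were called the same way at that probe and 9 were not called there. One direction turned, that of Tnfrsf22, which fell at its brightest probe and differed by 0.16 at its second brightest. Its further tested probes differed by 0.25 and 0.01 and were not called either. Without wild-type arrays 1, 5 and 6 its brightest probe differed by -1.07 and was not called (adjusted p = 0.196). Among all 343 called genes 105 had another tested probe, 44 had one called the same way and 8 had one of opposite sign. Ldhc and Dmrtc1c1, not well above background in Prdm4-EGFP cells, have only a bound there.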
